A study of Mus musculus with 12 samples.

Results

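Metallothionein and zinc transporter genes were followed in whole-liver RNA from 12 male mice. The 7 genes were chosen by name: the metallothioneins Mt1 and Mt2, the exporters Slc30a1 and Slc30a10, the importers Slc39a4 and Slc39a14, and the metal-responsive transcription factor gene Mtf1. All 7 are among the 54532 genes of the deposited table, and 6 of them, all but Mt2, had enough reads to be among the 14277 genes tested. The mice all carried a floxed allele of the mitochondrial carrier gene Slc25a34, with loxP sites in its promoter and first intron. At 2 months of age they received an AAV8 vector whose TBG promoter is active in hepatocytes, carrying either Cre, which gives the hepatocyte knockout (Slc-HKO, here HKO), or GFP, which gives the WT Control (here WT). Per the labels the vector reaches more than 95% of hepatocytes. All groups ate chow for 1 month after injection and then either stayed on it or were moved to the diet labelled FFD for 2 months, and were fasted for 16 h before harvest. Each of the 4 groups, WT and HKO on chow and WT and HKO on FFD, held 3 mice. What FFD is made of and the strain of the mice are not given in the sources used here. Whole liver keeps the cells that the vector does not reach.

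Metallothioneins are small cysteine-rich proteins that bind zinc and copper and buffer them inside the cell. When free zinc rises, MTF1 binds metal response elements (MREs) in the promoters of the metallothionein genes and of Slc30a1, whose product ZnT1 carries zinc out of the cell. Proteins of the SLC30 (ZnT) family move zinc out of the cytosol and those of the SLC39 (ZIP) family move it in. Slc30a10 encodes a manganese exporter, Slc39a14 (ZIP14) brings zinc, iron and manganese into hepatocytes and is raised by interleukin-6 in mouse liver, and Slc39a4 (ZIP4) is best known as the intestinal zinc importer.

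The promoters of the genes that MTF1 is known to act on, and of Slc30a10, which fell on FFD in HKO mice, are printed to show where the letters of the MRE stand in them. Entries were found for 5 of the 7 genes among the RefSeq windows (build GRCm38.p6, the assembly also called mm10). Slc39a4 and Slc39a14 had none, so their promoters were not searched for any of the letters below. The windows run from 250 bases before to 50 bases after the gene start used in that set. Of the windows printed here, only that of Slc30a10 is placed by the gene start of the deposited table, and the others are shifted from it. The MRE core was searched as TGCACNC or TGCGCNC on both strands, and its matches are in capitals; all 4 windows lie on the plus strand.
Mt1, chr8:94178839-94179138: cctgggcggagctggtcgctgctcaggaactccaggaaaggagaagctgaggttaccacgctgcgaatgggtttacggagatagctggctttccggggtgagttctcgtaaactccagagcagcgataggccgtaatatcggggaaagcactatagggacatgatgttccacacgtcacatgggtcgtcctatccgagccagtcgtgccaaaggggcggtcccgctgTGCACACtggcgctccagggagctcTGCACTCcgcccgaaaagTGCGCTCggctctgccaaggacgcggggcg
Mt2, chr8:94172368-94172667: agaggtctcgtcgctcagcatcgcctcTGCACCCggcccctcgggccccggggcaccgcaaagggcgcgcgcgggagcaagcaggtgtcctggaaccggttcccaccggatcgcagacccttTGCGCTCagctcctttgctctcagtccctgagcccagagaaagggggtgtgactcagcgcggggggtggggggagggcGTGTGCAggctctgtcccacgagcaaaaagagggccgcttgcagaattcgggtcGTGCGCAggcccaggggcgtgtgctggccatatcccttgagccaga
Slc30a1, chr1:191906531-191906830: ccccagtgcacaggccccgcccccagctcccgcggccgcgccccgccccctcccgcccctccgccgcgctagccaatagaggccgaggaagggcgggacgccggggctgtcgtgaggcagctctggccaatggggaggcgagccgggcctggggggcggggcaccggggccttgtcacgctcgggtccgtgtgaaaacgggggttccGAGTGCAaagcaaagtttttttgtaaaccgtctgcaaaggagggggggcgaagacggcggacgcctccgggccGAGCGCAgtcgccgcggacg
Slc30a10, chr1:185454598-185454897: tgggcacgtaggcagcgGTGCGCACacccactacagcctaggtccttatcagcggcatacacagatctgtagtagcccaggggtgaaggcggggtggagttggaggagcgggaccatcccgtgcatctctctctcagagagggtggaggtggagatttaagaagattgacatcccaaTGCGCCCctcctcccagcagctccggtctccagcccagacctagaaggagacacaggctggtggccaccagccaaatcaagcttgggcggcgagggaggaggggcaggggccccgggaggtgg
Mt1 held 3 matches, Mt2 held 4, Slc30a1 held 2 and Slc30a10 held 3, of which 2 share their letters on opposite strands. With the gene start used for the window as base 0, they began at −23, 2 and 20 in Mt1. In Mt2 they began at −223, −128, −50 and 4, in Slc30a1 at −43 and 30, and in Slc30a10 at −233, −232 and −73. Bases outside the windows were not searched, so these counts are not those of whole promoters. Mtf1 itself held 0. Its window, chr4:124802299-124802598, lies inside the deposited gene, which starts at 124802104, so the bases before that start were not searched. The letters TTCNNNGAA, a STAT factor core, were in none of the 5 windows and in 8.3% of all windows, and TGACNNNGC, an antioxidant response core, was found once each in Mt2 and Slc30a1 and in 12.4% of all windows; neither shares letters with an MRE match there. Of 32851 windows of the same length, 25.7% held at least 1 match, 7.11% held at least as many as Slc30a1, 1.97% as many as Mt1 or Slc30a10 and 0.517% as many as Mt2. A match of 7 letters is a description of the sequence and not a shown binding site.

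The libraries held 12842187 to 24332663 reads in genes. Slc25a34, the targeted gene, had 88 to 116 reads in WT and 4 to 13 in HKO livers on chow, and 30 to 92 against 4 to 18 on FFD. It was called lower in HKO livers on chow (log2 fold change −3.48, SE 0.45; edgeR quasi-likelihood test, Benjamini-Hochberg adjusted p = 0.024), in the main fit and in 16 of 21 alternatives. On FFD it missed the threshold of 0.05 (−2.88, SE 0.46, adjusted p = 0.071 by the same test) and passed in 2 of 21 alternatives. Hepatocyte markers (6 genes) summed to 54557.3 to 69656.5 CPM (counts scaled to library size) in every library, and of 8 pancreas markers 4 to 6 were at 0 in all libraries of a group, depending on the group. WT chow replicate 3 and WT FFD replicate 2 stood apart by a list of 22 acute phase and interleukin-6 response genes: their list scores, the mean log2 CPM centred per gene, were 1.14 and 1.33 against −0.96 to 0.09 in the other libraries. Saa1, a serum amyloid gene of that list, was at 1691 and 949.6 CPM in them and at 25.09 to 182.3 CPM elsewhere. Results for the members that rest on these 2 libraries are given with and without them, and for other genes the calls lost without both are named. HKO chow replicate 2 stood apart by other lists. Its gallbladder and gut score was 1.12, against at most 0.24 elsewhere. Its adipose score was 0.42, against −1.87 to −1.16 in the other chow libraries. Chi-square per degree of freedom between it and HKO chow replicates 1 and 3 was 34 and 28.1, against 9.26 between those. The sample numbers in the column headers run from 114 to 119 for FFD and from 141 to 145, with 159 for WT chow replicate 3, for chow. Whether the diets were processed at separate times is not given, so such a difference and the diet cannot be told apart.

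On FFD 2 of the 6 tested members were called lower in WT mice, Slc39a4 and Slc30a1, and 2 of 6 in HKO mice, Slc39a4 and Slc30a10, and no member was called higher. Among all tested genes 14.9% were called in WT and 13.6% in HKO mice, with 8.24% and 7.46% called higher and 6.61% and 6.12% called lower. Slc39a4 fell more than any other member in both genotypes, and Mt1 had higher means on FFD with a spread that left it short of the threshold. Between genotypes 0 of 6 members were called on chow, where 0.021% of all genes were, and 0 of 6 on FFD, where 0.007% were. The targeted gene Slc25a34 was itself not called on FFD, so 0 calls do not show that genotype left the members unchanged.

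**Figure D1:**
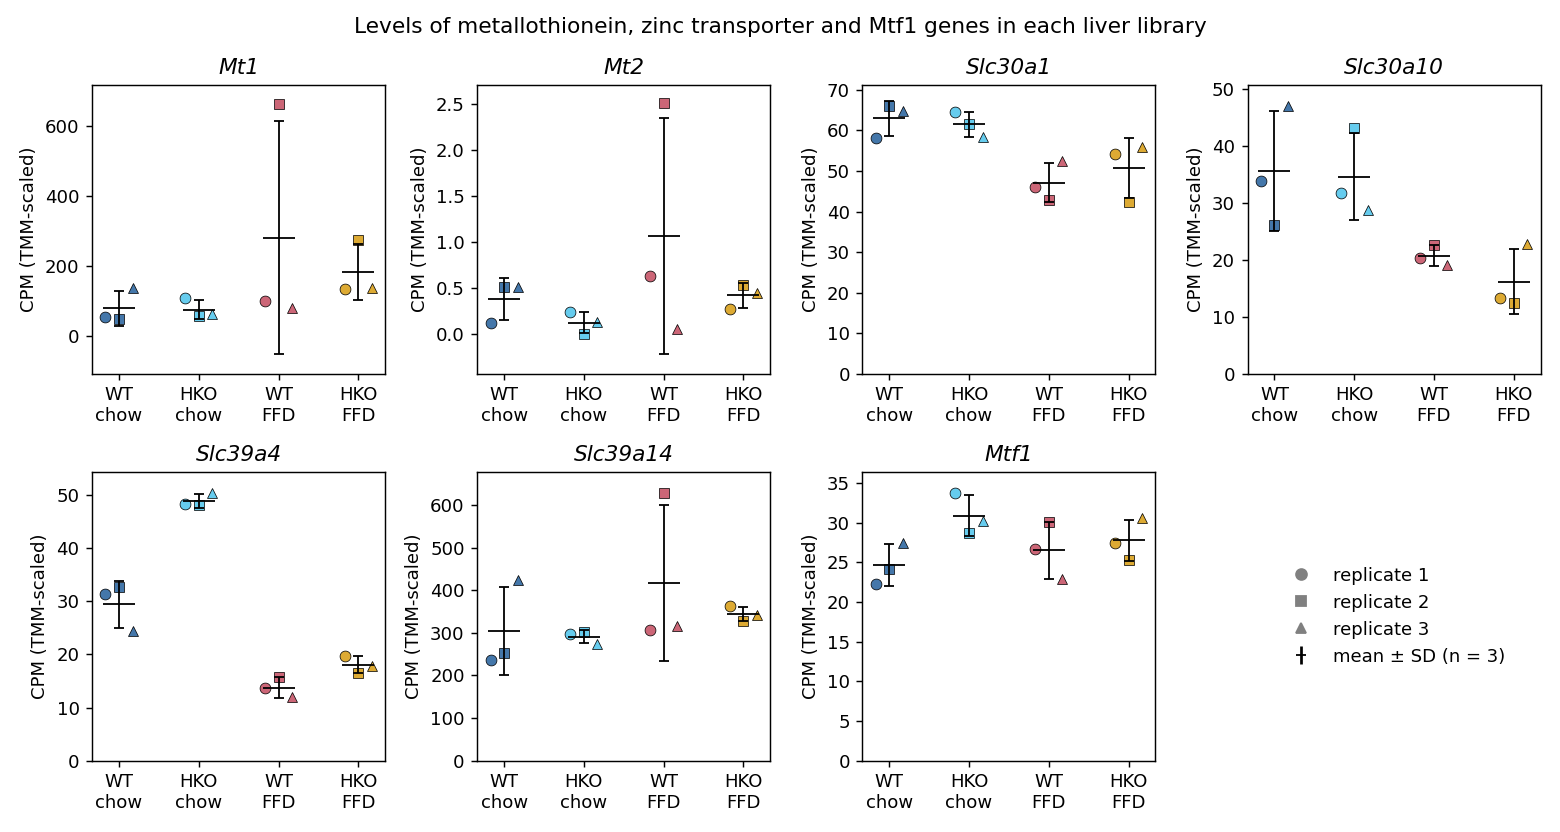
Level of each gene in CPM (y axis) in the 3 libraries of each of the 4 groups (x axis); points are libraries, shaped by replicate number, and the black bars give mean ± SD (n = 3). Slc39a4 on FFD lies between 11.9 and 19.8 CPM, below every chow library, and Mt1 in WT FFD replicate 2 stands at 663 CPM.

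**Figure D2:**
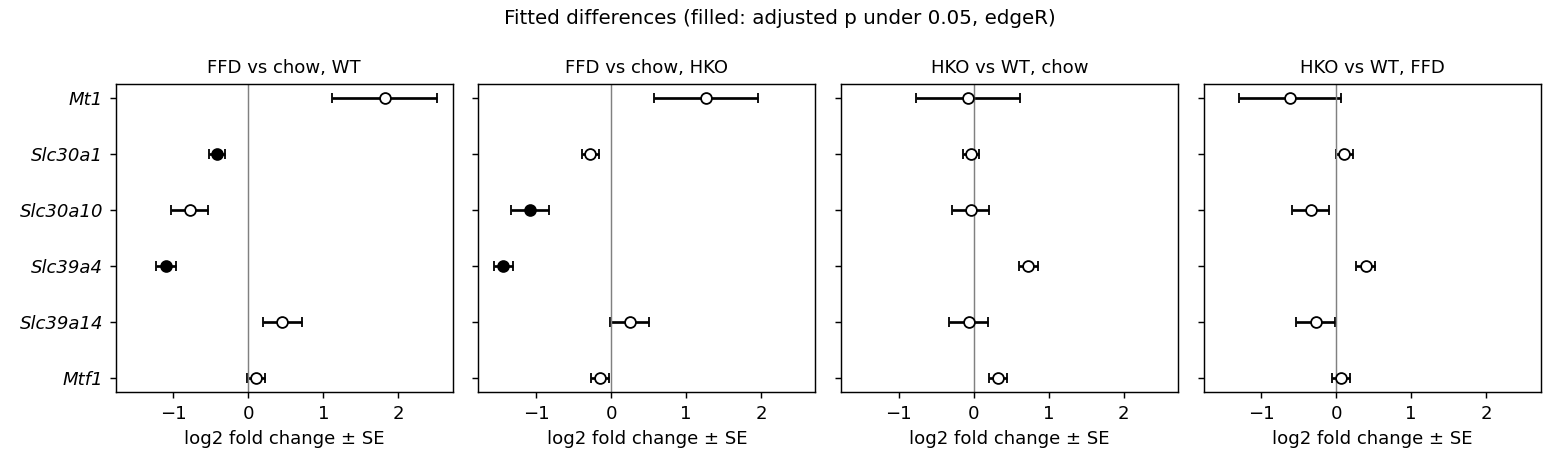
Log2 fold change with its standard error (x axis) for the 6 tested members in the 4 comparisons; filled points passed edgeR's test at an adjusted p under 0.05. The filled points are Slc39a4 in both diet comparisons, Slc30a1 in WT and Slc30a10 in HKO mice, all left of 0.

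The importer Slc39a4 (ENSMUSG00000063354, mm10 chromosome 15, 76612383 to 76617384, minus strand) had the smallest adjusted p of the members. On chow it stood at 31.4, 32.6 and 24.4 CPM in WT replicates 1 to 3 and at 48.3, 48.1 and 50.4 CPM in HKO replicates 1 to 3. On FFD it stood at 13.6, 15.7 and 11.9 CPM in WT and at 19.8, 16.5 and 17.9 CPM in HKO livers. No FFD library reached the lowest chow library, and in each diet every HKO library was above every WT library, so the 4 groups did not overlap at all. The group means were 29.5 ± 4.44 and 48.9 ± 1.27 CPM on chow and 13.8 ± 1.92 and 18.1 ± 1.65 CPM on FFD, WT before HKO (SD, n = 3 each). On FFD it fell 2.14-fold in WT mice (log2 fold change −1.10, SE 0.13; edgeR quasi-likelihood test, Benjamini-Hochberg adjusted p = 0.0004) and 2.71-fold in HKO mice (−1.44, SE 0.13, adjusted p = 8.3e-05 by the same test). Both calls held in all 21 alternatives, with log2 fold changes from −1.32 to −1.002 and from −1.50 to −1.38.

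Slc39a4 was also the member nearest to a genotype call. On chow it was 1.66-fold higher in HKO livers (log2 fold change 0.73, SE 0.12), which missed the threshold (edgeR quasi-likelihood test, Benjamini-Hochberg adjusted p = 0.064), and on FFD 1.31-fold higher (0.39, SE 0.13, adjusted p = 0.34). The chow difference passed in 3 of 21 alternatives, with DESeq2, with no filter on low counts and without HKO chow replicate 2 (adjusted p = 0.00018, 0.0001 and 0.023), and the range of adjusted p over all alternatives was 0.0001 to 0.31. The diet effect did not differ between genotypes past the threshold (interaction log2 difference −0.34, SE 0.18; edgeR adjusted p = 0.62). On the side of cell content, the 6 hepatocyte markers summed to 57782 to 69656.5 CPM on chow and 54557.3 to 59539.8 CPM on FFD, the 6 cholangiocyte markers to 35.8 to 66 and 28.8 to 41.1 CPM, and the 8 gallbladder and gut markers to 87.5 to 159 and 190 to 235 CPM. The score of the 4 gallbladder and gut markers with enough reads weights genes equally and overlapped between diets. It was −0.47 to 1.12 on chow, highest in HKO chow replicate 2, and −0.37 to 0.24 on FFD. Of these 4, edgeR called 1 higher and 1 lower on FFD in WT mice and 1 higher in HKO mice. Between genotypes on chow edgeR called 0 of them, and 3 had an unadjusted p under 0.05, against 11.8% of all tested genes. DESeq2 called 2 of the 8 there. The 6 adipose markers summed to 31.7 to 106 CPM on chow and 106.2 to 279 CPM on FFD with no overlap, with Lep at 0 in all libraries of 3 groups, and of the 3 tested 1 was called higher on FFD in WT and 2 in HKO mice. The 7 Kupffer cell and macrophage markers summed to 262 to 410 CPM on chow and 395 to 516 CPM on FFD, and 2 of 7 were called higher on FFD in WT and 1 in HKO mice. None of the hepatocyte or cholangiocyte markers was at 0 in all libraries of a group, while the gastric gene Gkn3 was at 0 in all libraries of 3 groups. On FFD 1 of 5 tested cholangiocyte markers was called lower in each genotype, and 1 of 6 hepatocyte markers in HKO mice. Their part in the Slc39a4 difference was not tested, and in whole liver fewer cells of a type and less RNA per cell cannot be told apart.

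The exporter Slc30a1 (ENSMUSG00000037434, chromosome 1, 191906767 to 191913247, plus strand) had a small difference between diets. WT livers held 58, 65.9 and 64.9 CPM on chow and 46.2, 42.8 and 52.4 CPM on FFD. HKO livers held 64.5, 61.7 and 58.3 CPM on chow and 54.2, 42.3 and 55.9 CPM on FFD. The chow and FFD libraries did not overlap in either genotype, while WT and HKO overlapped in each diet. In WT mice it fell 1.33-fold on FFD (log2 fold change −0.42, SE 0.11; edgeR quasi-likelihood test, Benjamini-Hochberg adjusted p = 0.024). In HKO mice the value was −0.28 (SE 0.11, edgeR adjusted p = 0.12), and the test of the difference between these effects did not pass (0.14, SE 0.16; edgeR adjusted p = 0.84). The call in WT mice ended without WT chow replicate 2 or 3, without WT FFD replicate 1 or 2 (log2 fold changes −0.38, −0.40, −0.41 and −0.35) and without both libraries with high acute phase genes (−0.33, edgeR adjusted p = 0.16, against 0.0081 to 0.16 over all alternatives).

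Slc30a10 (ENSMUSG00000026614, chromosome 1, 185454848 to 185468762, plus strand), the manganese exporter gene, was lower on FFD. WT livers held 33.9, 26.1 and 47 CPM on chow and 20.4, 22.7 and 19.1 CPM on FFD. HKO livers held 31.7, 43.3 and 28.9 CPM on chow and 13.3, 12.5 and 22.8 CPM on FFD. All 6 FFD libraries lay below all 6 chow libraries, and the genotypes overlapped in both diets. It fell 2.12-fold on FFD in HKO mice (log2 fold change −1.08, SE 0.25; edgeR quasi-likelihood test, Benjamini-Hochberg adjusted p = 0.014). In WT mice the value was −0.78 (SE 0.25) with an adjusted p of 0.051 by the same test, and it passed in 9 of 21 alternatives (adjusted p 0.00035 to 0.21). The call in HKO mice ended without HKO FFD replicate 1 or 2 (−0.96 and −0.92; edgeR adjusted p = 0.06 and 0.064, against 1.5e-06 to 0.064 over all alternatives). The diet effects of the genotypes did not differ past the threshold (−0.30, SE 0.35; edgeR adjusted p = 0.85).

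Mt1 (ENSMUSG00000031765, chromosome 8, 94179082 to 94180327, plus strand) had the widest range of the tested members. WT livers held 53.2, 48.8 and 137 CPM on chow and 99.1, 663 and 80.1 CPM on FFD. HKO livers held 108, 56.1 and 62.9 CPM on chow and 135, 274 and 138 CPM on FFD. The high values among WT mice were those of chow replicate 3 and FFD replicate 2, the libraries with high acute phase genes, and in HKO mice every FFD library was above every chow library. WT FFD replicate 2 stood 6.69-fold above the next library of its group. The log2 fold changes on FFD were 1.82 (SE 0.70) in WT and 1.27 (SE 0.70) in HKO mice, neither past the threshold (edgeR quasi-likelihood test, Benjamini-Hochberg adjusted p = 0.11 and 0.26).

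The Mt1 values in WT mice depended on those 2 libraries. The 6 neutrophil markers also summed highest in WT FFD replicate 2, at 20.4 CPM against at most 8.20 CPM elsewhere, and the part of such cells in the Mt1 value was not tested. Without WT FFD replicate 2 the diet difference there was 0.17 on the log2 scale, and without both libraries it was 0.82 (SE 0.36; edgeR adjusted p = 0.19, against 0.0001 to 0.85 over the 20 alternatives that gave one). In HKO mice, whose libraries were all kept, the fit without both gave 1.27 (SE 0.29) and passed (edgeR adjusted p = 0.015, against 0.0081 to 0.56 over the 20 alternatives that gave one). Fitted on the HKO groups alone it passed as well (1.27, SE 0.33, edgeR adjusted p = 0.038). The genotype values were −0.07 (SE 0.69) on chow and −0.62 (SE 0.68) on FFD (edgeR adjusted p = 0.98 and 0.82), and they changed sign without both libraries, to 0.57 (SE 0.33) and 1.02 (SE 0.33; edgeR adjusted p = 0.51 and 0.35, against 0.51 to 1 and 0.35 to 0.95 over the alternatives).

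Mt2 (ENSMUSG00000031762, chromosome 8, 94172664 to 94173568, plus strand) lies 5513 bases upstream of Mt1 and was almost uncounted. On chow its reads were 2, 9 and 8 in WT and 3, 0 and 2 in HKO libraries, and on FFD 11, 48 and 1 in WT and 4, 9 and 11 in HKO libraries. WT FFD replicate 2 was highest, as for Mt1. Per kilobase of gene length Mt1 averaged 124 CPM over the 12 libraries and Mt2 0.842 CPM. These lengths are unlike, as that of Mt1, 1246 bases, is its whole span and that of Mt2, 588 bases, only its exons. In the GENCODE M21 annotation, on the same build, 432 of the 588 exonic bases of Mt2 are shared with Gm45774, an antisense gene, which leaves 156 bases of its own. Gm45774 itself had 1 to 63 reads, with its highest count in the same WT FFD replicate 2. The strand setting of the counting is not given in the sources used here, and without strand reads on shared bases cannot be told apart. What part this has in the Mt2 counts was not tested. With no filter on low counts Mt2 could be tested, and its log2 fold changes on FFD of 1.48 (SE 0.68) in WT and 1.89 (SE 0.91) in HKO mice missed the threshold (edgeR adjusted p = 0.23 and 0.27, against 0.10 to 0.53 and 0.22 to 0.59 over the settings that gave one). Its genotype values in that fit were −1.72 (SE 0.93) on chow and −1.32 (SE 0.66) on FFD, and its interaction value was 0.40 (SE 1.07), none past the threshold (edgeR adjusted p = 0.65, 0.73 and 1, against 0.54 to 0.82, 0.50 to 0.86 and 0.93 to 1 over the same settings).

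The importer Slc39a14 (ENSMUSG00000022094, chromosome 14, 70303469 to 70351425, minus strand) was highest in the libraries with high acute phase genes. WT livers held 236, 254 and 423 CPM on chow and 307, 628 and 315 CPM on FFD, and HKO livers held 297, 302 and 273 CPM on chow and 362, 329 and 343 CPM on FFD. The high libraries were WT FFD replicate 2 and WT chow replicate 3, and the other WT libraries lay at 236 to 315 CPM. In HKO mice every FFD library was above every chow library. The log2 fold changes on FFD were 0.45 (SE 0.26) in WT and 0.25 (SE 0.26) in HKO mice (edgeR quasi-likelihood test, Benjamini-Hochberg adjusted p = 0.27 and 0.58). Without both libraries they were 0.35 (SE 0.09) and 0.25 (SE 0.07), and both passed (edgeR adjusted p = 0.039 and 0.044, against 0.039 to 0.93 and 0.044 to 0.74 over all alternatives). The genotype values were −0.07 on chow and −0.27 on FFD (SE 0.26 each; edgeR adjusted p = 0.95 and 0.79), and turned to 0.24 and 0.15 (SE 0.08 each) without those libraries (edgeR adjusted p = 0.24 and 0.63, against 0.24 to 0.99 and 0.63 to 0.92 over all alternatives).

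**Figure D3:**
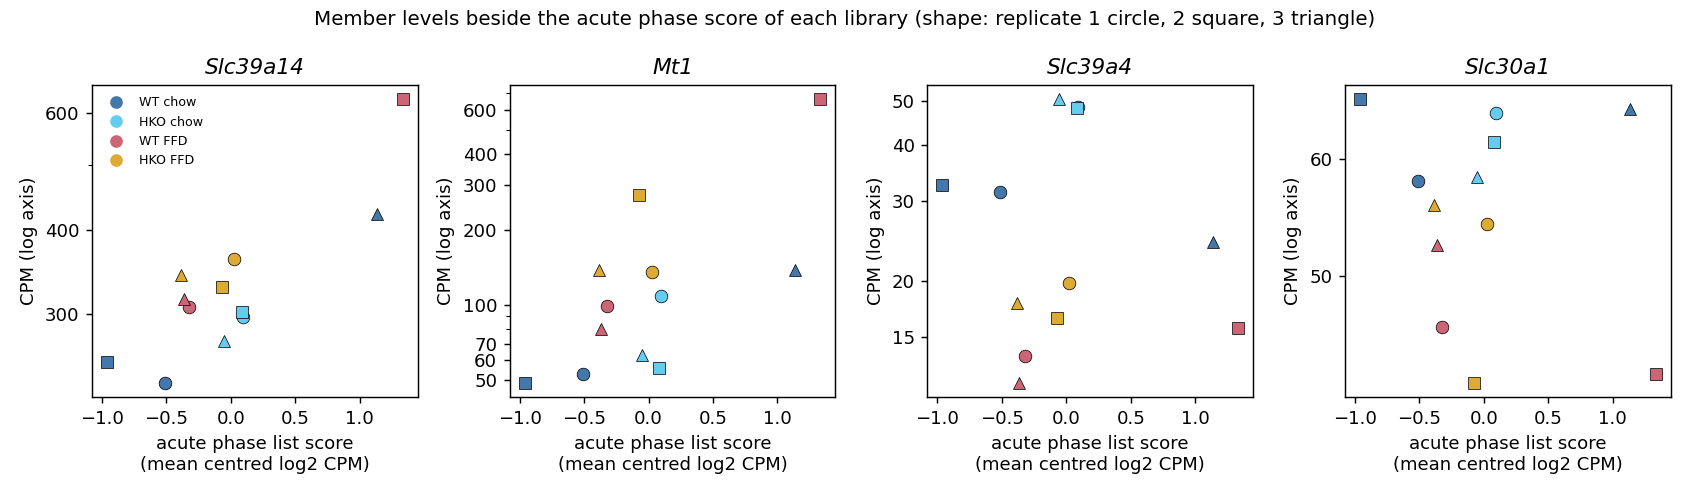
Level of 4 members in CPM (y axis, log scale) against the acute phase list score (x axis, mean centred log2 CPM over 22 genes), 1 point per library, coloured by group and shaped by replicate. Slc39a14 and Mt1 are highest in WT FFD replicate 2, the rightmost point with a score of 1.33, while Slc39a4 and Slc30a1 separate by diet.

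Mtf1 (ENSMUSG00000028890, chromosome 4, 124802104 to 124849800, plus strand) stayed within a narrow range. WT livers held 22.3, 24.2 and 27.5 CPM on chow and 26.6, 30 and 22.9 CPM on FFD, and HKO livers held 33.7, 28.7 and 30.2 CPM on chow and 27.4, 25.3 and 30.5 CPM on FFD. Every HKO library on chow was above every WT library on chow, and the groups overlapped in the other comparisons. Its genotype value on chow was 0.32 (SE 0.12) on the log2 scale, which did not pass (edgeR quasi-likelihood test, Benjamini-Hochberg adjusted p = 0.32). Its value on FFD was 0.07 and its diet values were 0.11 in WT and −0.15 in HKO mice (SE 0.12 each). Mtf1 shares 721 of its exonic bases with 1110065P20Rik on the other strand, a gene with 118 to 225 reads, and Slc30a1 and Slc30a10 share 468 and 533 bases with antisense or noncoding genes of at most 20 and 28 reads.

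For genotype, where edgeR called 0 members, the looser readings were few. At an unadjusted p under 0.05 there were 2 members on chow, Slc39a4 and Mtf1, where 11.8% of all tested genes lay under it, and 1 on FFD, Slc39a4, where 9.34% did. DESeq2, which gave no adjusted p for Mt1, called 1 member on chow, Slc39a4, and 0 on FFD. WT and HKO libraries did not overlap for 2 of 6 members on chow, against 14.2% of all tested genes, and for 1 of 6 on FFD, against 16.4%. Chow and FFD libraries did not overlap for 3 of 6 members in WT and 5 of 6 in HKO mice, against 32.6% and 33.6% of all tested genes. At an unadjusted p under 0.05 there were 4 members for diet in WT mice and 3 in HKO mice, against 29% and 28.3% of all tested genes. The test of the difference between the diet effects called 0 members with edgeR, 0 with DESeq2 and 0 at an unadjusted p under 0.05, where 0% of all genes were called and 9.06% lay under an unadjusted 0.05. For Mt1, Slc39a14 and Mtf1 that difference was −0.55 (SE 0.97), −0.21 (SE 0.37) and −0.26 (SE 0.17) on the log2 scale. The comparisons share groups, so a gene's 4 values are not independent of each other.

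Within the order of groups, Slc39a4 ran from HKO chow through WT chow and HKO FFD to WT FFD with no overlap between neighbours. For Slc30a1 the neighbours within a diet overlapped and the diets did not, and the same held for Slc30a10. For Mt1, Slc39a14 and Mtf1 the library ranges of all neighbours in the order of group means overlapped.

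Among all transporters of both families, Slc39a4 was the only one that edgeR called on FFD in both genotypes. Of the 10 ZnT genes 8 were tested, and 1 was called lower on FFD in WT (Slc30a1) and 1 in HKO mice (Slc30a10), with median log2 fold changes of −0.19 in each, against −0.01 over all genes. Of the 14 ZIP genes 13 were tested, and 2 were called lower in WT mice, Slc39a4 and Slc39a2, and 1 in HKO mice, Slc39a4, with medians of −0.06 and −0.08. Among all tested genes 6.61% were called lower in WT and 6.12% in HKO mice. Slc39a2, another plasma membrane zinc importer gene, averaged 3.07 ± 0.331 CPM in WT mice on chow and 1.59 ± 0.545 CPM on FFD (log2 fold change −0.95, SE 0.29; edgeR quasi-likelihood test, Benjamini-Hochberg adjusted p = 0.045). That call held in 10 of 21 alternatives. It was lost in most fits with 1 library left out, and without both libraries with high acute phase genes. In HKO mice Slc39a2 was at 2.86 ± 0.475 and 1.69 ± 0.497 CPM, which did not pass (edgeR adjusted p = 0.11). Between genotypes edgeR called 0 of these transporters in either diet. At an unadjusted p under 0.05 there were 2 of 13 ZIP genes on chow and 1 on FFD and 0 of 8 ZnT genes in either. Of all tested genes 11.8% lay under it on chow and 9.34% on FFD. For diet, 4 ZnT and 4 ZIP genes lay under it in each genotype, against 29% of all tested genes in WT and 28.3% in HKO mice. Between genotypes DESeq2 called 1 ZIP gene on chow, Slc39a4, and 0 otherwise. Slc30a2, Slc30a8 and Slc39a12 had at most 8 reads in any library and were not tested, and Mt3 and Mt4 had 0 reads in all libraries.

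Per kilobase of gene length, Mt1 was the most abundant member at 124 CPM, averaged over the 12 libraries. The length used for Mt1, 1246 bases, is its whole span in the genome, with introns counted in. Its value per kilobase is therefore not strictly comparable with those of genes whose length leaves introns out. Slc39a14 followed at 32.1 CPM per kilobase, close to Slc39a1, a plasma membrane zinc importer gene that is not a member, at 32.9. Slc30a1 was at 10.6, Slc39a4 at 8.87, Slc30a10 at 4.6 and Mtf1 at 3.08 CPM per kilobase. The libraries spanned 39.1 to 532 CPM per kilobase for Mt1 and 22.4 to 59.6 for Slc39a14, so these ranges overlapped, and 8.06 to 12.6 for Slc30a1. Slc39a4 had a higher mean than Slc30a1 in HKO chow livers only, at 15.8 against 11.7 CPM per kilobase, and a lower one in the other 3 groups, down to 4.43 against 8.99 in WT FFD livers.

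**Figure D4:**
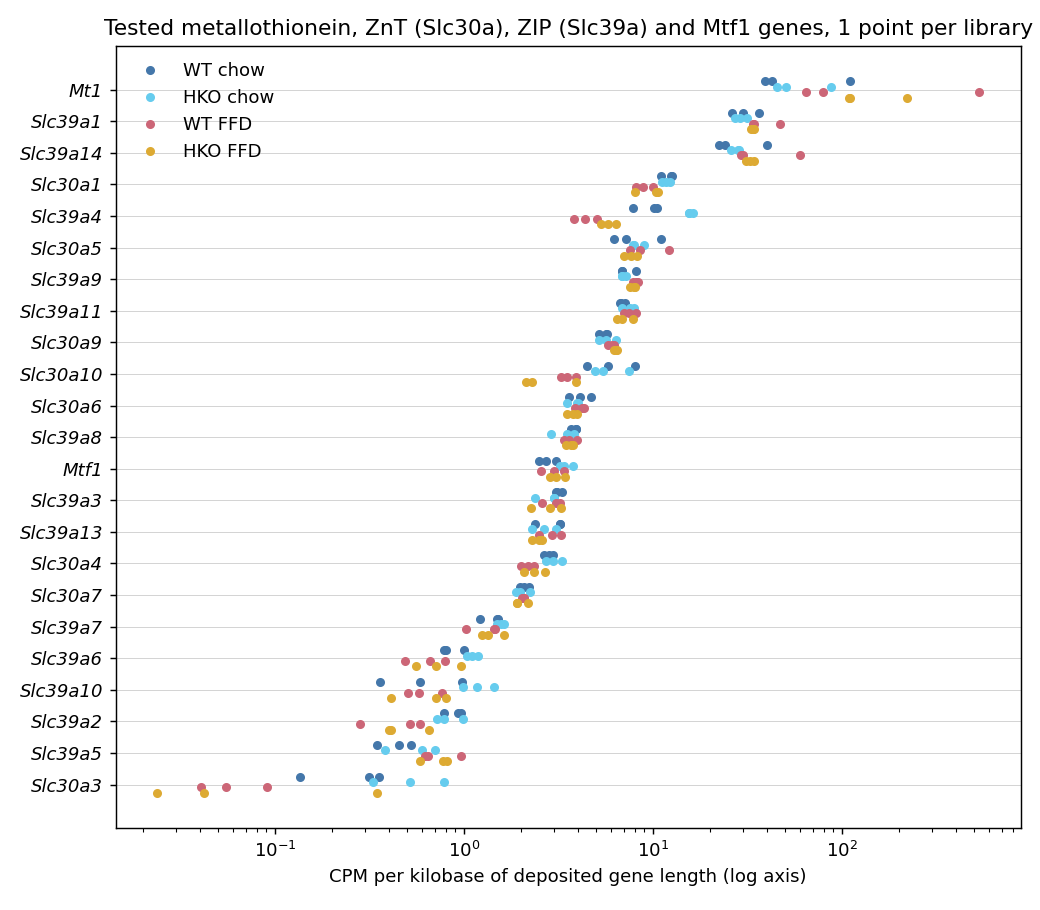
Level per kilobase of gene length (x axis, log scale) of the tested metallothionein, ZnT, ZIP and Mtf1 genes (y axis), 1 point per library, coloured by group. Mt1 spans 39.1 to 532 CPM per kilobase, and Slc39a4 and Slc30a10 have their FFD points left of their chow points.

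Other genes of metal handling gave few calls. Of 9 genes of the metal response list, MTF1 and genes reported as its targets, 8 were tested, and 1 was called lower on FFD in each genotype, Slc30a1 in WT mice and Ndrg1, a stress-responsive gene, in HKO mice (log2 fold change −0.89, SE 0.21; edgeR adjusted p = 0.014). Between genotypes 3 of the 8 lay under edgeR's unadjusted p of 0.05 on chow and 2 on FFD. Of all tested genes 11.8% and 9.34% did. For diet 3 did in WT and 4 in HKO mice, against 29% and 28.3%, and for the interaction 2 did, against 9.06%. DESeq2 called 1 for diet in each genotype and 0 otherwise. The list's scores on chow were 0.11 to 0.22 in HKO and −0.20 to −0.04 in WT libraries, and on FFD they overlapped. Of 12 copper handling genes 11 were tested and edgeR called 0 in each of the 5 comparisons, as did DESeq2. Per comparison 0 to 1 lay under an unadjusted p of 0.05, against 9.06% to 29% of all tested genes. Of 12 glucocorticoid response genes, a group named because glucocorticoids raise metallothionein expression, 1 was called higher, the receptor gene Nr3c1, and 2 lower on FFD in WT mice, the clock gene Per1 and the kinase gene Sgk1, and 0 in HKO mice. The Per1 call held in all 21 alternatives, that of Nr3c1 in 13 and that of Sgk1 in 11. The Nr3c1 and Sgk1 calls were lost without both libraries with high acute phase genes, among other fits. The list's medians for HKO against WT were 0.35 on chow and 0.55 on FFD with 0 called by edgeR, against 0.00 over all genes, and their part in the members' values was not tested. At an unadjusted p under 0.05 there were 2 of its genes for genotype on chow, 5 on FFD and 2 for diet in HKO mice. Of all tested genes 11.8%, 9.34% and 28.3% lay under it there. In the same comparisons DESeq2 called 0, 2 and 0 genes of the list. Its score in WT FFD replicate 2, the library highest in Mt1, was 0.07, against −0.76 and −0.70 in its group. WT chow replicate 3, highest in Mt1 on chow, scored −0.04, against 0.08 and −0.14. HKO chow replicate 1 and HKO FFD replicate 2, highest in Mt1 in their groups, scored 0.519 and 0.284. The next scores in those groups were 0.515 and 0.242. What part this has in the Mt1 values was not tested. Of the 22 acute phase genes 1 was called, Steap4, a metalloreductase gene, higher on FFD in WT mice (2.06, SE 0.56; edgeR adjusted p = 0.027). In the other comparisons edgeR and DESeq2 called 0 acute phase genes, with 0 to 4 at an unadjusted p under 0.05 in each. Of all tested genes 9.06% to 28.3% lay under it in those comparisons. The Steap4 call was lost without WT FFD replicate 2, at 0.79, without WT chow replicate 1 or 2, at 1.86 and 1.89, with robust dispersions and with only the WT groups, both at 2.06, and with the mouse number as a replicate block, at 1.80.

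Likeness to each tested member was described over the 12 libraries by Pearson's r of log2 CPM after subtracting group means, among 12595 other genes with a mean of at least 1 CPM. For Mt1 the 5 most alike were Mat1a (r = 0.98), an enzyme gene of S-adenosylmethionine synthesis, Cebpd (0.96), an acute phase transcription factor gene, Nnmt (0.96), Prg4 (0.95) and Grb2 (0.95). Without WT chow replicate 3 and WT FFD replicate 2, with group means taken again, these were 0.93, 0.75, 0.76, 0.68 and 0.88. For Slc39a14 they were Tnfrsf1a (0.99), a tumour necrosis factor receptor gene, the acute phase gene Serpina3n (0.96) and Map7d1 (0.96), and without the same libraries 0.80, −0.18 and 0.71, so the likeness to Serpina3n rested on them. For Slc39a4 they were Abca5 (0.90), 0610010F05Rik (0.89) and Gm17971 (0.89), for Slc30a1 Cfdp1 (0.93), Lzts2 (0.92) and Gm13021 (0.91), for Slc30a10 Ccnf (0.95), Stk16 (0.95) and Rtf2 (0.94), and for Mtf1 Oxsr1 (0.98), Alyref (0.97) and Ptpn11 (0.96). Among the members themselves Mt1 and Slc39a14 were the most alike pair (r = 0.87, Spearman's rho = 0.78), but this rested on the same 2 libraries, without which r was −0.35 over the other 10. Mt1 and Slc30a1 had an r of −0.47 (rho = −0.41), and −0.57 without them. Spearman's rho was 0.84 to 0.98 for the genes named for each member, and without the 2 libraries farthest from the member's median, r was 0.53 to 0.97 for the genes named for Slc39a4, Slc30a1, Slc30a10 and Mtf1. The genes named here are the highest of all genes compared, so their r is no test, and depth and RNA quality are shared by the values of a library.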

How the data were processed

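Total RNA from 12 livers was sequenced as 1 library per mouse. The authors deposited raw read counts per gene with each gene's length in bases. STAR, featureCounts 1.5.0-p3 and the build mm10 are named, per the submitters' processing notes; no STAR version, strand setting or annotation is given in the sources used here. All 12 columns of counts were matched to mice by name, 0 were left unused, and groups were taken from the labels. Within groups no libraries were identical, and chi-square per degree of freedom was 9.26 to 39.7.

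The main test was edgeR 4.0.16 under R 4.3.3: filterByExpr, trimmed mean of M values (TMM) scaling, 1 mean per group over all 12 libraries, quasi-likelihood tests, two-sided, with Benjamini-Hochberg adjustment over all 14277 genes per comparison and a threshold of 0.05. CPM are scaled by TMM, and log2 CPM used a prior count of 2. Fold changes come from the fit. The fit was also run on simulated data with 200 changed genes, to check the code. What share it recovered is not given here, and those data held no libraries set apart like the ones with high acute phase genes. The p-values measure the spread between these mice. The members and lists were chosen with earlier results of these data known. All members are named whatever their values, and for each list up to 4 genes past the threshold with the smallest p; likeness names the 5 genes (Mt1) or 3 genes of highest r. Alternatives were 2 other scalings, no filter, a filter of 1 CPM in 3 libraries, robust dispersions, DESeq2 1.42.0, only the 2 groups compared, the mouse number as a block, each library left out, and both libraries with high acute phase genes left out.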

Additional observations from a re-analysis of the deposited data

How the results depend on the processing

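The Slc39a4 diet calls held in all alternatives run. The count of members called on FFD in WT mice, 2, was 4 with no filter on low counts and 1 to 3 with 1 library left out. In HKO mice, also 2, it was 4 without both libraries with high acute phase genes, where Mt1 and Slc39a14 joined. It was 3 there with no filter and with only the 2 groups, and 1 to 2 with 1 library left out. Between genotypes on chow the 0 became 1, Slc39a4, with no filter and with DESeq2, and 0 to 1 with 1 library left out. On FFD and in the interaction it stayed at 0 in every fit. Without both acute phase libraries Mt1 reversed between genotypes to 0.57 on chow, 1.02 on FFD and 0.45 in the interaction, Slc39a14 to 0.24 on chow and 0.15 on FFD, and Slc30a10 on chow to 0.21. With 1 library left out, reversals occurred within ranges of −0.42 to 0.56, −1.06 to 1.02 and −1.19 to 1.10 for Mt1 between genotypes on chow, on FFD and in the interaction. They occurred within −0.22 to 0.24, −0.45 to 0.15 and −0.52 to 0.21 for Slc39a14 in the same order, within −0.089 to 0.0046 for Slc30a1 and −0.24 to 0.20 for Slc30a10 on chow, and within −0.030 to 0.16 for Mtf1 on FFD. None of these was called in any fit.

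Over all genes, the 3 calls between genotypes on chow became 395 with no filter, 119 with DESeq2, 1 with only the 2 groups, 14 without both acute phase libraries and 0 to 313 with 1 library left out. The 1 call on FFD became 306, 130, 2, 3 and 0 to 30 in the same order, and 2 with robust dispersions. The interaction's 0 became 238 with no filter, 87 with DESeq2 and 0 to 81 with 1 library left out. The 313 calls on chow and the 81 in the interaction both came without HKO chow replicate 2. Without any other single library these counts were at most 12 and 1. Diet calls were 2121 in WT mice, 1187 without both acute phase libraries and 1113 to 2334 with 1 library left out. In HKO mice they were 1939, 2153 without both acute phase libraries and 967 to 2125 with 1 library left out. The cause of these shifts was not tested. DESeq2 gave no adjusted p for Mt1. With the mouse number as a replicate block, calls were 0 between genotypes on chow, 2 on FFD and 1 in the interaction, and the members' calls did not change. No pairing of libraries by mouse number was seen in their deviations from the group means. Those of same-numbered libraries correlated at −0.114 to 0.117, against −0.123 to 0.130 for other pairs. With 3 libraries per group these values cannot exclude a pairing. The 2 other scalings moved the median of all genes by under 0.01 on the log2 scale.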
